A study of Mus musculus with 45 samples.

Results

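Mouse chromosome 9 was represented by 2346 probes, out of 42235 probes on the autosomes and the X chromosome of a 44K Agilent comparative genomic hybridization (CGH) array. The probes were taken by position, as the probes of chromosome 9 that start at 12 Mb or beyond in genome build mm8 (3 gene names left out). No measured value of a probe decided whether it was included, but earlier results of these data were known when this part was chosen. They ran from 13181633 to 123957580, a span of 110.8 Mb, with a median spacing of 20.9 kb and a largest gap of 2.20 Mb. A gene name was given for 1985 of them, 1202 names in all.

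In CGH, DNA of a tumor and reference DNA are labelled with different dyes and compete for the same probes, so that the ratio of the dyes at a probe follows the number of copies in the tumor relative to the reference. Here 45 primary invasive mammary tumors of female mice, from 8 genetically engineered models, were each set against pooled reference DNA. The labels name the source of the reference as spleen but its tissue as normal mammary gland. The labels name them BRCA1fl/fl;p53+/-;MMTV-cre (5 tumors, below BRCA1-/-;p53+/-), MMTV-c-Myc (5, MMTV-Myc), C3(1)/SV40 T/t-antigens (5, C3(1)-Tag), MMTV-Her2/neu (5), MMTV-H-Ras (5, MMTV-HRas), p53fl/fl ;MMTV-cre transplant (6, p53-/-), MMTV-PyMT (9) and MMTV-Wnt1 (5). The replicates of a model are its tumors, and p-values measure the spread between them. In 5 of the models the MMTV promoter, active in mammary epithelium, drives the oncogene itself. In the BRCA1-/-;p53+/- and p53-/- models it drives the Cre recombinase that removes the floxed gene, and the C3(1) promoter drives the viral antigens of C3(1)-Tag. The labels call the p53-/- tumors transplants, and they give neither the age nor the strain of the mice. The DNA came from bulk tumor tissue, so a change in fewer cells and a change of fewer copies per cell cannot be told apart.

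Mouse chromosome 9 corresponds in part, but not in whole, to the short arm of human chromosome 3 and the long arm of human chromosome 11. Both of these arms lose copies in human carcinomas. The mouse chromosome carries genes of the DNA damage response (Chek1, Mre11a, Topbp1), of mitosis (Ccnb2, Kif23, Cdc25a) and of signalling (Smad3, Smad6, Tgfbr2, Cbl), and several microRNA genes. MicroRNAs are short RNAs that repress messenger RNAs by pairing through the seed, bases 2 to 8 of the mature RNA. The mature sequences of 6 miRNAs of known interest in cancer are printed because whole-chromosome gains and losses change the number of copies of all of them together. The sequences are those of RefSeq (GRCm38.p6), 5′ to 3′, with the seed in capitals:

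mmu-miR-34b-5p: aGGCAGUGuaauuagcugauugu

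mmu-miR-100-5p: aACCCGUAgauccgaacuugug

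mmu-miR-125b-5p: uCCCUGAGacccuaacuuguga

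mmu-let-7g-5p: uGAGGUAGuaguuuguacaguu

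mmu-miR-26a-5p: uUCAAGUAauccaggauaggcu

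mmu-miR-138-5p: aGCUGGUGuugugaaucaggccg

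Copy number at each miRNA gene was read from the array probes between its neighbouring genes, since the array names no miRNA gene. Mir34b, a target gene of p53 that lies beside Btg4, was covered by 11 probes between Snf1lk2 and Pou2af1 (chr9:50706199-50985586, mm8). Mir100 and Mir125b-1, within the noncoding gene 2610203C20Rik, were covered by 9 probes between 2810457I06Rik and Sorl1 (chr9:40765083-41849713). Mirlet7g lay among 4 probes between 6230410P16Rik and Ppm1m (chr9:106012226-106056360), Mir26a-1, within Ctdspl, among 7 probes between Itga9 and Vill (chr9:118515598-118917162), and Mir138-1 among 5 probes between Abhd5 and D9Ertd402e (chr9:122201559-122669156).

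The direction of the ratios and the labels of 5 tumors come before any value. According to the labels, Cy5 marks tumor DNA. In the files, 98.01% of 755 intervals with at least 3 probes and a size of at least 0.2, out of 5412 deposited beside the array data, had the sign of Cy3 over Cy5. One of the 2 Brca1 probes, on chromosome 11, had log2 ratios of Cy3 over Cy5 from -5.14 to -1.69 (median -4.69) in the BRCA1-/-;p53+/- tumors and from -0.64 to 0.78 (median 0.083) in the others, while the second read 0.15 to 0.81 and -0.30 to 0.74. Cy3 over Cy5 was therefore used as tumor over reference, against the labels and chosen after these values had been seen, and every sign below turns if the labels hold. Among the tumors, C3TAg_7RPT correlated with H2N61 at r = 0.928 and C3TAg_5RPT with H2N53 at r = 0.960 over 1 Mb bins of all autosomes, although labelled as different models, where the median of 990 pairs was 0.0824 and the highest other pair reached 0.850. The Wnt1 probe was at 0.074 in Wnt_4635, against a median of 1.33 in the 5 MMTV-Wnt1 tumors and 0.16 in the other models. Where leaving out some or all of these 5 tumors changed a result, the value without them is given beside it. Over the 45 arrays the SD of a probe, from differences between neighbouring probes, ran from 0.159 to 0.476 and 95.7% to 99.9% of the chromosome 9 spots passed the scanner software's test against background for both dyes. The 45 arrays lay on 18 slides scanned on 10 dates, and the BRCA1-/-;p53+/- slides and dates held no other model, so that for this model slide, date and genotype cannot be told apart. The p53-/- and MMTV-HRas slides also held no other model, so slide and genotype cannot be told apart there, although p53-/- shared its scan dates with other models.

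Most tumors kept chromosome 9 near the copy number of the rest of the genome, and 5 of 45 had it lost or gained from end to end. The log2 ratios of an array were set to a median of 0 over its autosomal probes and cut into segments of equal copy number. A tumor was called lost or gained where segments with a mean of at most -0.2 or at least 0.2 held 10% or more of the chromosome 9 probes. The loss was called in 4 of 45 tumors (8.89%, exact 95% binomial confidence interval 2.48 to 21.2%) and the gain in 1 of 45 (2.22%, 0.0562 to 11.8%). Without the 5 tumors in doubt the counts were 4 and 1 of 40.

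In H2NA, an MMTV-Her2/neu tumor, the mean log2 ratio of the chromosome 9 probes was -0.38, the lowest of the 45. The means of 4 successive stretches with equal numbers of probes were -0.40, -0.38, -0.36 and -0.37, and all 103 bins of 1 Mb lay below 0. In C3TAg_8_RPT the mean was -0.29, the 4 stretches lay between -0.31 and -0.28, and again all 103 bins were below 0. In Brca_14, a BRCA1-/-;p53+/- tumor, the mean was -0.26 with stretches at -0.22, -0.28, -0.21 and -0.31, and 102 of 103 bins were below 0. In P53_1573 the mean was -0.195, close to the limit, with stretches at -0.21, -0.21, -0.16 and -0.20 and again 102 bins below 0. The loss in each of these tumors thus ran over the whole measured length, with 99.5% to 100% of the probes in lost segments.

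The single gain was P53_5809, with a mean of 0.305, stretches at 0.30, 0.28, 0.38 and 0.26, and 100% of its probes in 1 gained segment. Its bins ranged from -0.074 to 1.07, 95 of 103 lay above 0, and its probe SD of 0.476 was the highest of the 45 arrays. Its bin profile along chromosome 9 was most like that of another p53-/- tumor, P53_2979 (r = 0.861), the closest of the 990 pairs on this chromosome, although the mean of P53_2979 was 0.022 and no segment of it was called.

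**Figure D1:**
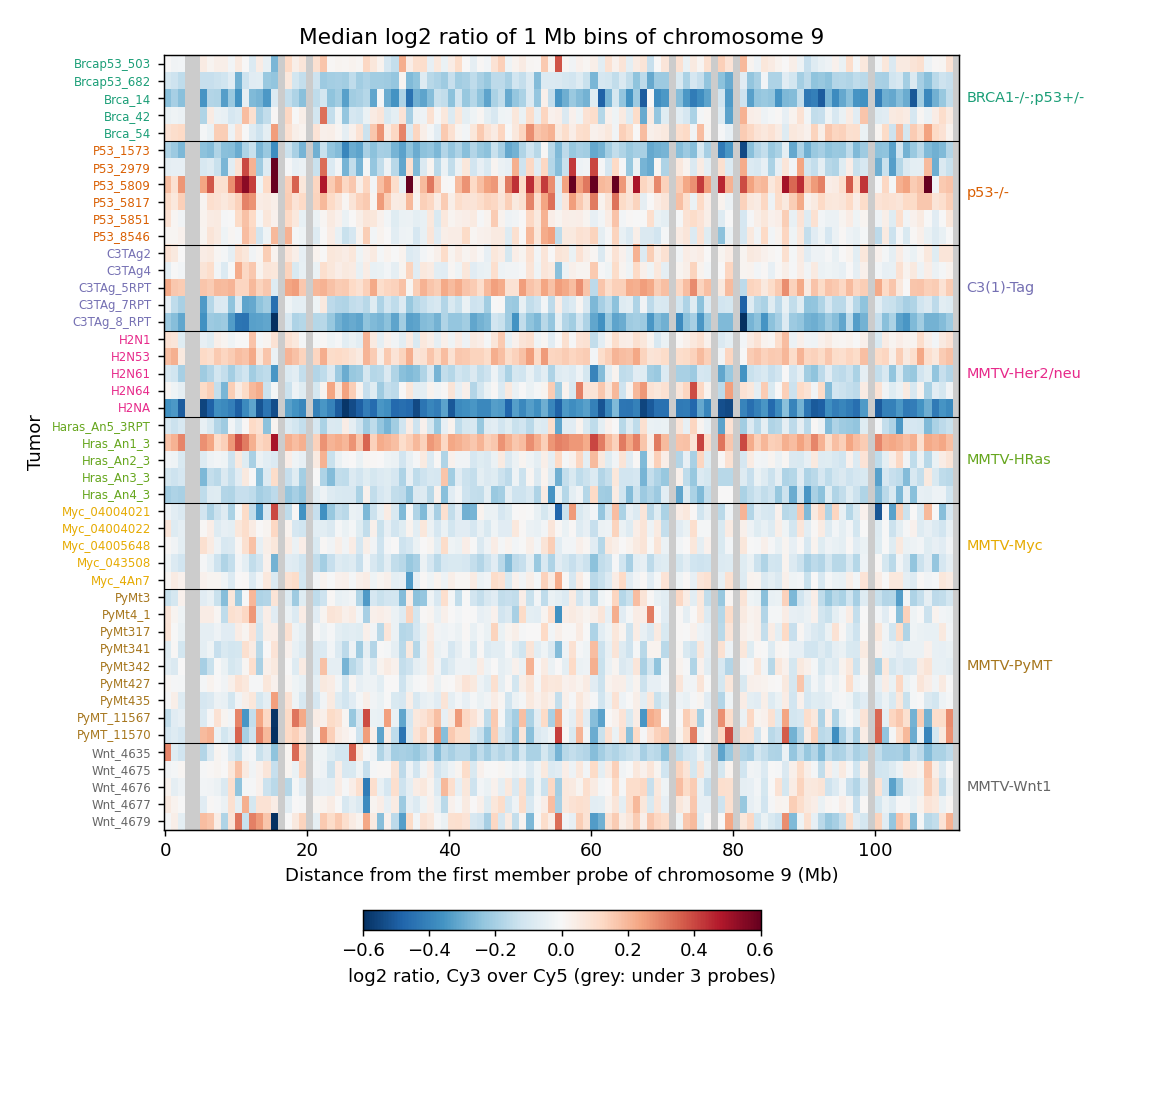
Median log2 ratio (Cy3 over Cy5, centred on each array) in 1 Mb bins of chromosome 9, one line per tumor, grouped by model, against the distance from the first probe in Mb. Colours run from -0.6 to 0.6, values beyond take the end colour, and grey marks bins with fewer than 3 probes. The lines of H2NA, C3TAg_8_RPT, Brca_14 and P53_1573 are low from end to end and that of P53_5809 is high.

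The other 40 tumors had at most 5.92% of the probes in called segments, and their means ran from -0.174 to 0.195 with a median of -0.0073. In 27 of them the mean lay within 0.1 of 0, in 9 it was -0.1 or lower and in 4 it was 0.1 or higher. The highest of these was Hras_An1_3 (0.195), just under the limit for a gain, and the lowest C3TAg_7RPT (-0.174), 1 of the tumors in doubt. Each of the 4 stretches of Hras_An1_3 lay between 0.182 and 0.203, so that its shift was as even along the chromosome as that of the called tumors. No whole-chromosome call was made in MMTV-Myc, MMTV-HRas, MMTV-PyMT or MMTV-Wnt1. For 0 of 5 tumors the interval reached 52.2%, and for 0 of 9 tumors 33.6%, so that these counts leave room for a sizeable share in any of these models. In p53-/- 2 of 6 tumors were called, 1 lost and 1 gained (33.3%, 4.33 to 77.7%).

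**Figure D2:**
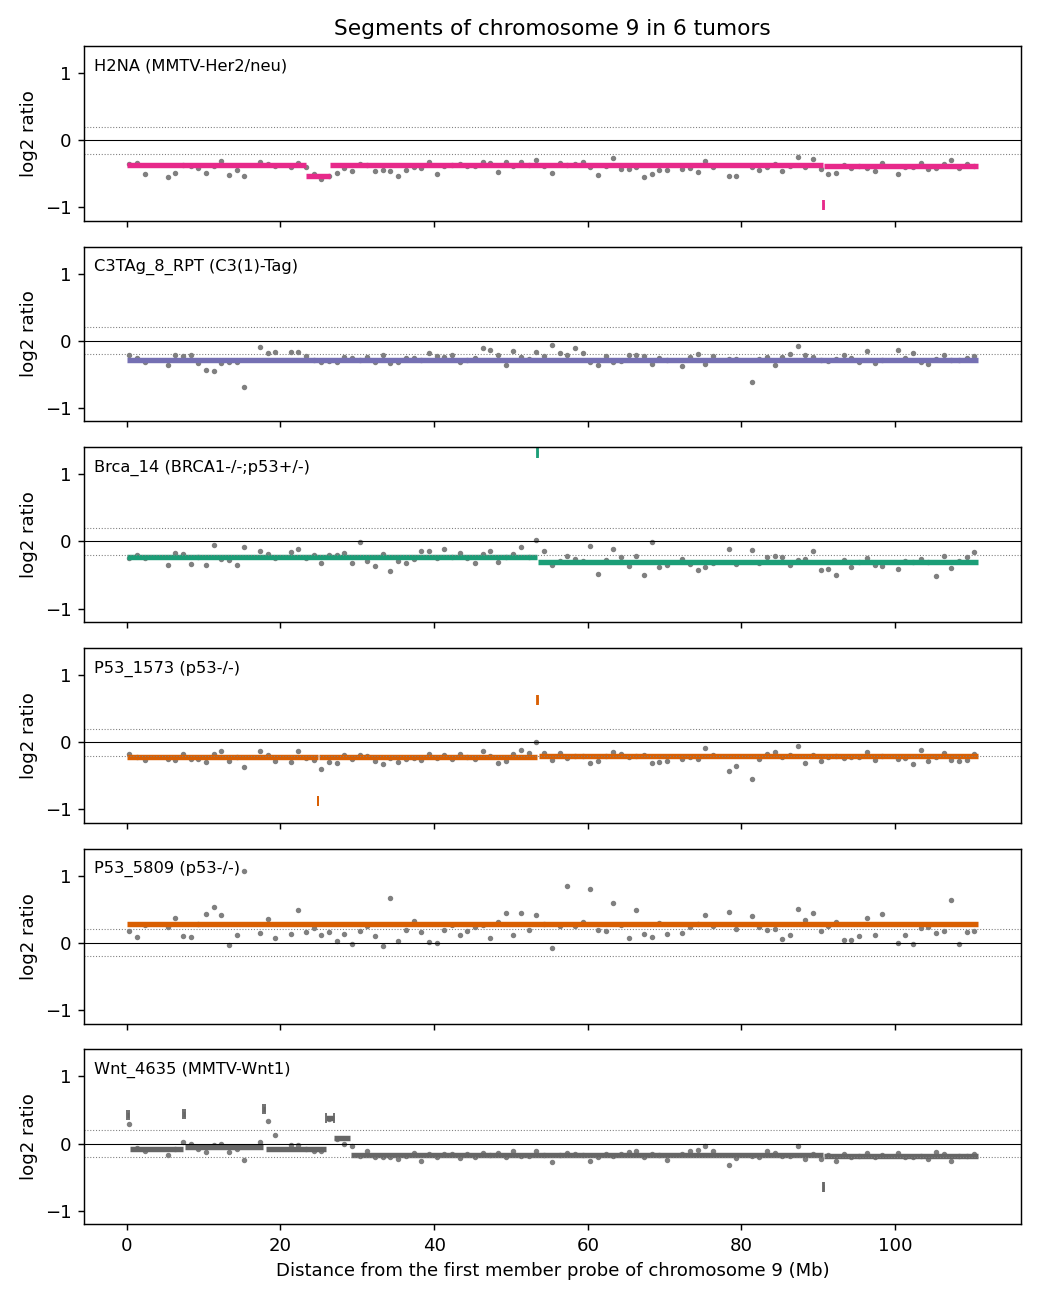
Log2 ratio along chromosome 9 in H2NA, C3TAg_8_RPT, Brca_14, P53_1573, P53_5809 and Wnt_4635, against the distance from the first probe in Mb. Grey points are 1 Mb bin medians, lines are segment means and dotted lines mark -0.2 and 0.2. In the first 5 tumors the long segments lie beyond a dotted line over the whole length, and Wnt_4635 has short high steps in its first stretch.

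The calls depended on where the centre and the limit were set. Over 10 ways of processing, H2NA was lost in 10, P53_5809 gained in 9, Brca_14 and C3TAg_8_RPT lost in 7 and P53_1573 lost in 6. Centred on the density peak, the count was 3 lost and 2 gained, because C3TAg_8_RPT (mean -0.10) and P53_1573 (mean 0.063) no longer reached the limit while C3TAg_7RPT and Hras_An1_3 (mean 0.306) did. Normexp background correction gave 3 lost (C3TAg_8_RPT, H2NA and Haras_An5_3RPT) and 4 gained. The authors' own intervals gave 2 lost (Brcap53_682 and H2NA) and 6 gained, so that H2NA was the only loss shared with the setting used here. A limit of 0.3 left H2NA as the only call. The split between losses and gains, 4 to 1, therefore holds for the setting used here.

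Tumors with a whole-chromosome change of chromosome 9 also had such changes elsewhere. Among the other 18 autosomes, whole losses and gains numbered 2 and 2 in Brca_14, 7 and 7 in C3TAg_8_RPT, 5 and 3 in H2NA, 7 and 6 in P53_1573, and 0 and 7 in P53_5809. Tumors without a call on chromosome 9 reached similar numbers, such as 5 and 7 in P53_2979 and 7 and 4 in P53_8546. Within each tumor, chromosome 9 was the third lowest of the 19 autosomes in Brca_14 and in H2NA, the eighth lowest in C3TAg_8_RPT and in P53_1573, and the twelfth in P53_5809.

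The mean gained share of chromosome 9 was lower than that of the other autosomes. On average 2.44% ± 14.9 (SD, n = 45) of its probes lay in gained segments, against 13.7% ± 13.1 of the probes of the other autosomes. The difference within tumors was -11.2 ± 16.3 percentage points (SD). A two-sided sign-flip permutation test over tumors gave p = 1e-05, the smallest value its 100000 draws can give. The lost share was 9.14% ± 28.6 on chromosome 9 and 11.1% ± 14.5 elsewhere (difference -2.01, permutation p = 0.59), and the difference was 0.313 without the 5 tumors in doubt. With the authors' intervals in place of the segments the gained share differed by -5.90 points (permutation p = 0.123), and with the dyes as labelled gains and losses change places. Of the 19 autosomes, chromosome 9 ranked the 18th by mean gained share, where chromosome 6 stood first (32.0%), and the 10th by mean lost share.

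The models did not separate by the mean of chromosome 9, which varied as much within models as between them. In BRCA1-/-;p53+/- the 5 tumors read 0.021, -0.144, -0.256, 0.0062 and 0.078 (mean -0.059 ± 0.137, SD, n = 5). In MMTV-Her2/neu they read 0.026, 0.117, -0.132, 0.0058 and -0.379 (mean -0.073 ± 0.193), and in C3(1)-Tag 0.038, 0.0080, 0.143, -0.174 and -0.293 (mean -0.056 ± 0.175). These 3 models each held tumors on both sides of 0, and their ranges overlapped all others. The 5 MMTV-HRas tumors lay between -0.142 and 0.195 (mean -0.041 ± 0.136), the 5 MMTV-Myc tumors between -0.108 and -0.0038 (mean -0.052 ± 0.051) and the 5 MMTV-Wnt1 tumors between -0.129 and -0.0078 (mean -0.040 ± 0.050). The 9 MMTV-PyMT tumors lay between -0.096 and 0.036 (mean -0.011 ± 0.039, the smallest SD of the 8 models).

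The p53-/- tumors stood highest, at -0.195, 0.022, 0.305, 0.170, 0.042 and 0.062 (mean 0.068 ± 0.167, n = 6), with 5 of 6 above 0. Against the other 39 tumors (mean -0.044 ± 0.111) the difference was 0.111, with an exact permutation p of 0.0408 and an adjusted p of 0.326 over the 8 models. Without P53_1573, the 1 tumor of this model that had lost the chromosome, the difference was 0.164 and its adjusted p by the exact permutation test 0.0387, whereas without P53_5809, the 1 that had gained it, the difference was 0.0638 with an adjusted p of 0.938. For the other 7 models the difference ran from -0.049 (MMTV-Her2/neu) to 0.022 (MMTV-PyMT), with an adjusted p of 0.823 for each by the exact permutation test. The difference of MMTV-Wnt1 changed sign without the 5 tumors in doubt, to 0.0110.

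**Figure D3:**
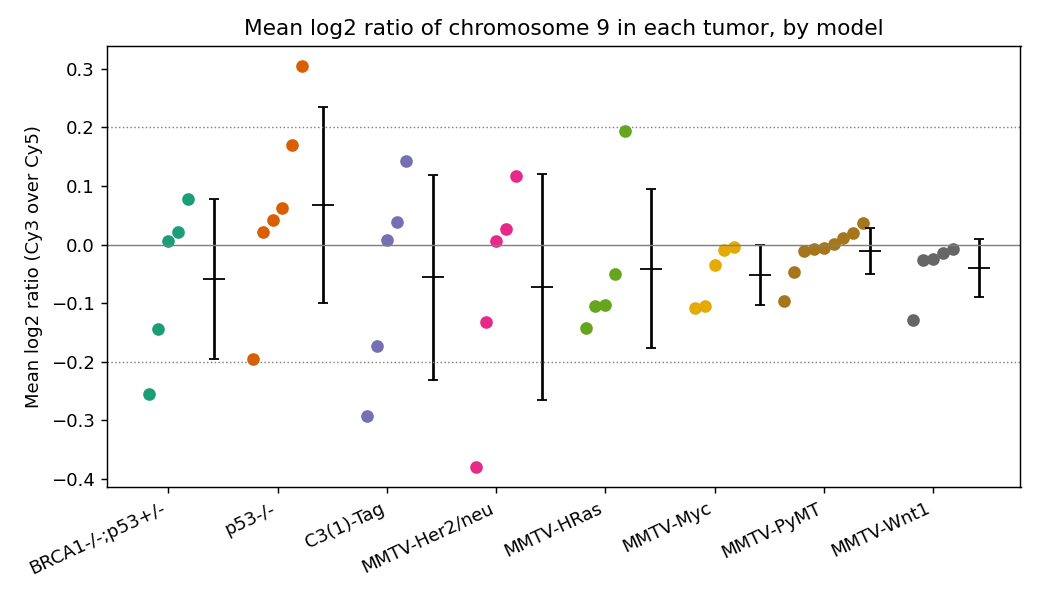
Mean log2 ratio of the chromosome 9 probes in each tumor, by model. Points are tumors, bars are the mean and SD of the model and dotted lines mark -0.2 and 0.2. The tumors of every model overlap those of the others, and H2NA (-0.38) and P53_5809 (0.305) are the extremes.

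Genes known from human cancer are described next in the tumors called lost or gained. These tumors were called from chromosome 9 probes that include those of the listed genes. The direction of most listed genes was therefore set by the call and is not a result about them. Of 15 candidate tumor suppressors of the short arm of human chromosome 3, 13 were measured. Their median log2 ratio was -0.44 in H2NA and -0.38 in Brca_14, with 13 of 13 genes below 0 in both. It was -0.29 in P53_1573, again with 13 of 13 below 0, and -0.21 in C3TAg_8_RPT, with 12 of 13. For comparison, the median over all autosomal gene names lay between -0.024 and 0.0047 in these tumors. The mean of all chromosome 9 probes was -0.38 in H2NA, -0.26 in Brca_14, -0.195 in P53_1573 and -0.29 in C3TAg_8_RPT. Rassf1, which codes for a scaffold protein of the Hippo pathway, read -0.67 in H2NA, -0.70 in Brca_14, -0.38 in C3TAg_8_RPT and -0.26 in P53_1573, where the other 40 tumors had a median of -0.15. Tgfbr2, the type II receptor of TGF-beta, read -0.42, -0.28, -0.41 and -0.57 in the same order, against a median of -0.20 in the other 40. Limd1, a LIM domain protein, read -0.44, -0.36, -0.35 and -0.43, against a median of -0.043. In P53_5809 the same list had a median of -0.00018, with 6 genes above 0 and 7 below, from -0.40 for Sema3f to 1.16 for Limd1. The other lists had medians between 0.21 and 0.43 in this tumor, whose array had the highest probe SD, and the difference between lists was not tested.

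Among 6 measured genes of the DNA damage response, all 6 were below 0 in Brca_14, C3TAg_8_RPT, H2NA and P53_1573, with medians of -0.36, -0.25, -0.40 and -0.32. Mre11a, a nuclease of the double-strand break sensor, read -0.58, -0.40, -0.41 and -0.38 in this order and 0.44 in P53_5809. Chek1, the kinase of the replication checkpoint, read -0.12, -0.22, -0.38 and -0.15, and 0.22 in P53_5809. For the 7 mitotic genes the medians were -0.19, -0.20, -0.42 and -0.17, with 6, 7, 7 and 4 genes below 0, and 0.43 in P53_5809 with 7 of 7 above. The highest mitotic gene of P53_1573 read 0.54. Ccnb2, the B-type cyclin of mitosis, read -0.46, -0.17, -0.29 and -0.17, and 0.70 in P53_5809. The 13 genes of growth factor, Ras and TGF-beta signalling had medians of -0.27, -0.29, -0.42 and -0.16, and 0.21 in P53_5809. Within that list Cbl, a ubiquitin ligase that turns off receptor tyrosine kinases, read -0.44, -0.22, -0.44 and -0.35. The highest value in P53_5809 was that of Pik3cb, a catalytic subunit of PI3 kinase, at 1.396, and P53_2979 had 0.96 at the same gene while the other 4 p53-/- tumors had -0.04 to 0.14. Of 12 transcription and chromatin genes 10, 12, 12 and 9 were below 0 in Brca_14, C3TAg_8_RPT, H2NA and P53_1573. Of 12 genes of adhesion, proteolysis and invasion 8, 12, 12 and 10 were below 0, with values up to 0.32 in Brca_14 and 0.46 in P53_1573.

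At the 6 miRNA genes the 4 tumors with a loss read below 0 and P53_5809 above 0, but most of these values lay within the range of the other 40 tumors. The tumors were called from chromosome 9 probes that include these, so the direction was largely set by the call. At Mir34b the mean of the 11 probes was -0.71 in Brca_14, -0.24 in C3TAg_8_RPT, -0.28 in H2NA and -0.19 in P53_1573, and 0.34 in P53_5809. The other 40 tumors ranged from -0.48 to 0.30 there (median -0.0043), and Brca_14 was lower than all of them. At Mir26a-1 the 4 tumors with a loss read -0.52, -0.42, -0.35 and -0.18 in this order and P53_5809 read 0.20, where the other 40 ranged from -0.44 to 0.18. At Mirlet7g they read -0.26, -0.18, -0.33 and -0.23, with 0.10 in P53_5809, all within the -0.39 to 0.37 of the other 40. At Mir100 and Mir125b-1, which share their probes, the values were -0.16, -0.41, -0.38 and -0.21, and 0.29 in P53_5809, where the other 40 ranged from -0.31 to 0.32. At Mir138-1 they were -0.080, -0.27, -0.37 and -0.23, and 0.64 in P53_5809, above every other tumor (highest 0.43). These miRNAs were among 11 looked up after the values of the chromosome were known. At Mir190a, 1 of the 11 that is not printed here (21 probes), Brca_14 read 0.0074, above 0 despite its loss call.

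Breakpoints, the borders between neighbouring segments, were few and were spread unevenly over the models. The 45 tumors had 72 on chromosome 9, and 24 tumors had none. All 5 tumors of BRCA1-/-;p53+/- had breakpoints (5, 2, 2, 4 and 8, mean 4.2 ± 2.49), whereas no MMTV-HRas or MMTV-Myc tumor had one. The mean was 2.6 ± 1.67 in MMTV-Her2/neu, 2.33 ± 1.97 in p53-/-, 0.889 ± 1.05 in MMTV-PyMT and 0.8 ± 1.095 in C3(1)-Tag. In MMTV-Wnt1 it was 2.4 ± 4.34, of which Wnt_4635 contributed 10 of the 12 breakpoints. BRCA1-/-;p53+/- had 2.93 more breakpoints per tumor than the other 7 models (exact permutation p = 0.0115, adjusted over the 8 models 0.0916). Without Wnt_4635 the difference was 3.15 and the adjusted p by the exact permutation test 0.0102, and with outlier spots kept 3.33 and 0.0418. Over 11 alternatives the difference ran from 1.28 with normexp background correction to 10.6 without smoothing of single probes, and the adjusted p by the exact permutation test from 0.0102 to 0.721. For the other models the adjusted p by the exact permutation test lay between 0.312 and 0.513. Against only the tumors of other models on its own slides, MMTV-Her2/neu had 2 more breakpoints per tumor (permutation p = 0.0167), and MMTV-Wnt1 had 1 fewer than the other models without Wnt_4635 (difference -1). Single probes that stood more than 4 SD from their neighbours were also most common in BRCA1-/-;p53+/-, at 2.28% ± 0.61 of its chromosome 9 probes, and in p53-/- (1.97% ± 0.74), against 0.44% to 1.20% in the other 6, and their part in the breakpoints was not tested beyond the segmentation without smoothing.

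The short segments held most of these breakpoints. There were 38 segments of at most 5 Mb in 21 tumors, 20 higher and 18 lower than the longest segment of their tumor, with a median length of 172 kb and 9.5 probes. Of these, 21 in 13 tumors were focal, their mean lying 0.6 or more from 0. The places described next, where a short segment recurred in more than 1 tumor, were picked from these values and are described without a test.

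The largest recurrent signal lay at Aph1b and Aph1c, which code for subunits of gamma-secretase, the protease that cleaves Notch receptors (5 probes, chr9:66574663-66614221). All 5 BRCA1-/-;p53+/- tumors were high there relative to their other chromosome 9 probes, at 1.55, 1.16, 2.30, 2.47 and 2.30 (mean 1.96 ± 0.57). In p53-/- 4 tumors were high (1.66, 1.484, 1.66 and 1.46), whereas P53_2979 and P53_5809, the noisiest p53-/- arrays (probe SD 0.449 and 0.476), read 0.070 and 0.14. The other 34 tumors lay between -0.59 and 0.28, so that 9 tumors stood apart with no overlap. The height came from a few probes. The Aph1b probe at 66590374 had a mean log2 ratio of 4.99 in BRCA1-/-;p53+/- and 3.41 in p53-/-, but the probe of BC050972 between Aph1b and Aph1c had 0.18 and 0.55.

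The same 9 tumors were high at single probes on both sides. At Pif1, a DNA helicase on the near side of Aph1b (chr9:65392319-65392378), the BRCA1-/-;p53+/- tumors read 2.68, 4.20, 4.98, 4.28 and 5.57, and 4 p53-/- tumors 3.93, 6.05, 5.03 and 5.38, with 0.12 and 0.17 in P53_2979 and P53_5809. At Tpm1, which codes for a tropomyosin (chr9:66836258-66836317), the values were 3.90, 2.27, 5.43, 4.65 and 3.59 in BRCA1-/-;p53+/- and 4.05, 4.84, 5.54 and 4.35 in the same p53-/- tumors, with -1.06 and 0.76 in the other two. Tumors of the remaining 6 models did not exceed 1.27 at Pif1 and 0.32 at Tpm1. Car12, a carbonic anhydrase at the near side of Aph1b, read 1.08 to 1.67 in all 6 p53-/- tumors and 0.16 to 1.33 in BRCA1-/-;p53+/-. The 1 Mb bin that holds Aph1b, Aph1c, Car12 and Tpm1 (34 probes) differed by 0.045 in BRCA1-/-;p53+/- (limma adjusted p = 0.848) and by 0.18 in p53-/- (limma adjusted p = 0.0575). The called segments at this place held 5 probes in Brca_54, 9 to 11 probes, from Aph1b to Rab8b or Rps27l, in Brcap53_503, Brca_14, Brca_42, P53_1573, P53_5817 and P53_5851, and 15 probes, from Car12 to Tpm1, in P53_8546.

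A second place was low in the same models, at Olfr899 within an olfactory receptor cluster (3 probes, chr9:38118126-38131820). Relative to the other probes of the chromosome, BRCA1-/-;p53+/- read -1.26 ± 0.87 (-2.57 to -0.34, n = 5) and p53-/- read -1.13 ± 0.60 (-1.58 to -0.29, n = 6). The means of the other models lay between 0.0045 and 0.31. The groups overlapped, since PyMt342 read -0.40, lower than Brcap53_682 (-0.34) and P53_5809 (-0.29). A segment was called there in Brca_42, P53_1573, P53_5817 and P53_5851. The 3 arrays of 1 slide, PyMT_11567, PyMT_11570 and Wnt_4679, were the highest of all at Olfr899 (0.73 to 1.35) and the lowest of all at Aph1b and Aph1c (-0.59 to -0.47), and their slide cannot be told apart from their tumors.

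**Figure D4:**
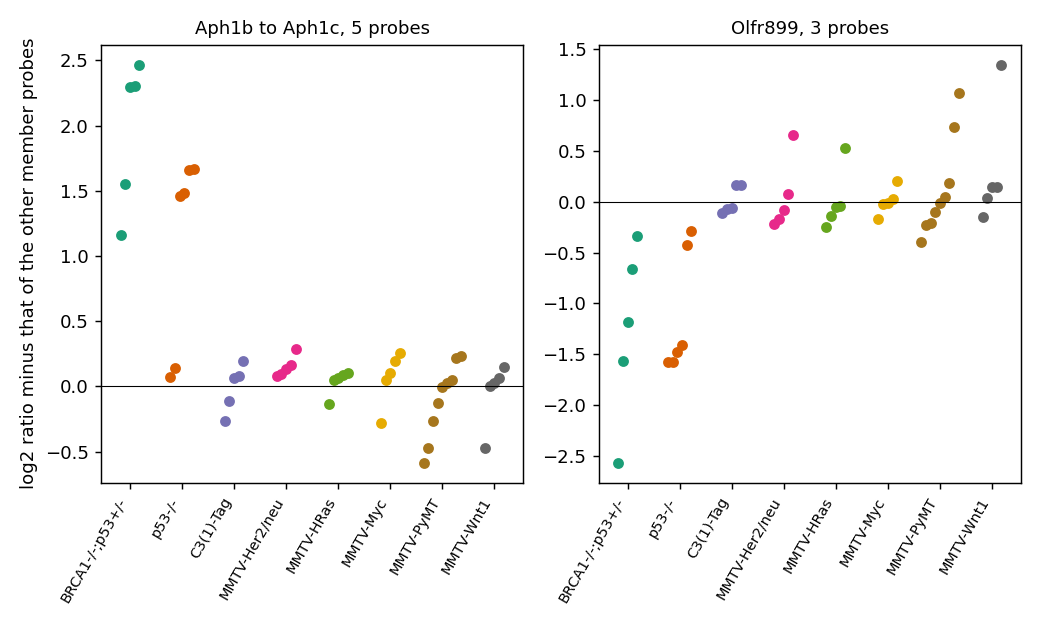
Mean log2 ratio of the probes at 2 recurrent places (Aph1b to Aph1c, Olfr899) minus that of the other chromosome 9 probes, per tumor and model. All 5 BRCA1-/-;p53+/- and 4 of 6 p53-/- tumors are high in the first panel (P53_2979 at 0.070 and P53_5809 at 0.14 are not), and all tumors of both models lie at -0.29 or lower in the second.

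A longer place, from Fez1 to Olfr961 (131 probes, 2960 kb, chr9:36572111-39532494), was lower than its surroundings by 0.13 in H2N61 and 0.15 in H2NA. Over the 45 tumors it ranged from -0.20 to 0.19. Among the segments seen once, H2N64 had 85 probes at -0.235, which include Keap1, the sensor of oxidative stress, and Smarca4, the ATPase of the SWI/SNF complex. PyMT_11567 had 29 probes at 0.54 (chr9:44623158-45136050), PyMt341 11 probes at 0.50 that began within Ncam1 (chr9:49386549-50257621), and PyMt4_1 6 probes at 0.72 from Myo6 to AK035861 (chr9:80069118-81126368). Brca_54 carried the most short segments of its model, among them a high one from Trim29 to Usp2 (9 probes, 0.61), with Usp2 the most extreme. Another ran from Pif1 to Zfp609 (8 probes, 0.86), with a mean of 1.35 before single probes were pulled in. Its most extreme gene was Pif1, whose probe was high in every BRCA1-/-;p53+/- tumor, and the part of the other probes was not tested. Brcap53_503 had 5 probes at 0.98 in AK038437 (chr9:46630511-46764214).

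Wnt_4635, whose label is in doubt, had a pattern of its own. The first of its 4 stretches had a mean of 0.00081 while the others lay at -0.165, -0.165 and -0.185. Within the first stretch 4 short segments were high, at chr9:13181633-13534133 (0.42), from Col5a3 to Icam1 at chr9:20556162-20775751 (0.44), from Aplp2 to Tmem45b at chr9:30960283-31195572 (0.52) and from Olfr44 to Gramd1b at chr9:39159483-40113628 (0.38, 48 probes). No other MMTV-Wnt1 tumor had a high segment, and the 1 short segment in this model outside Wnt_4635 was a low one in Wnt_4677 (chr9:38214676-38448035, 14 probes, -0.46) in the olfactory receptor cluster.

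Bin by bin, no part of the chromosome stood out as lost or gained across tumors. Of the 103 bins, 98 were lost in 4 tumors and 5 in 5 tumors, and 99 were gained in 1 tumor. Of the bins with 5 losses, H2N64 added those that start at 20000001 and 21000001, and H2N61, a tumor in doubt, those that start at 36000001, 37000001 and 38000001. In the bin at 20000001 the probe with the lowest mean in the 5 tumors was that of Icam5, a neuronal adhesion molecule (-0.73). The Icam5 probe was low in all models, with means from -0.62 in MMTV-Her2/neu to -0.33 in MMTV-Myc, so that its value is not particular to the lost tumors. Of the bins gained in 2 tumors, Wnt_4635, a tumor in doubt, added those that start at 13000001, 31000001 and 39000001, and PyMt4_1 that at 80000001. In the first of them Cep57, a centrosomal protein, was the highest probe (0.59). In MMTV-Her2/neu the bin at 20000001 was lost in 2 of 5 tumors.

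Comparison of each model with the other 7 over all 2050 autosomal bins (limma) called few bins of chromosome 9 at the setting used here. In BRCA1-/-;p53+/- 0 of 103 bins were called, where 0.39% of all bins were higher and 2.1% lower. The count was 0 of 103 as well in C3(1)-Tag (all bins 0% and 0%), MMTV-HRas (13.9% higher, 4% lower), MMTV-Her2/neu (0% and 0%), MMTV-Myc (0.439% higher, 0% lower), MMTV-PyMT (2.54% higher, 0.195% lower) and MMTV-Wnt1 (0.0488% higher, 0% lower). At an unadjusted limma p under 0.05 the counts in these 7 models were 2, 1, 0, 0, 0, 0 and 1. In p53-/- 2 of 103 bins were called higher and 0 lower, against 2.29% and 4.83% of all bins, which is close to the background for higher bins. The first was chr9:70000001-71000000 (19 probes), with Myo1e, Ccnb2, Rnf111, Sltm, Adam10, Lipc and Aqp9. Its p53-/- tumors read -0.23, 0.43, 0.84, 0.25, 0.034 and 0.056, and the others -0.37 to 0.26 (difference 0.25 ± 0.080, SE, limma adjusted p = 0.0439). Only P53_2979 and P53_5809 lay above the range of the other models. The second was chr9:73000001-74000000 (7 probes), with a difference of 0.29 ± 0.094 (SE, limma adjusted p = 0.0486) and again P53_5809 highest (0.80). Neither bin was called without Wnt_4635 (limma adjusted p 0.0525 and 0.0582) or with scan date as a block. The same held with the density peak as the centre (0.0534 and 0.0644), with loess (0.128 and 0.112), with normexp background correction (0.403 and 0.181), and without P53_2979, P53_5809 or P53_5817, and the second bin was also lost without the C3(1)-Tag and MMTV-Her2/neu tumors in doubt (0.0736). Of the 39 tumors of other models, leaving out any of 11 ended both calls and any of 17 ended 1 of them, with limma adjusted p up to 0.0593. Without P53_1573, 10 of 103 bins were called higher (9.71%) and 0 lower, where 3.17% and 7.02% of all bins were. With normexp background correction 13 of 103 bins were called higher (12.6%, against 8.59% of all bins), and neither bin above was among them. By the mean of the probes of a bin 12 were called in p53-/- and 4 in BRCA1-/-;p53+/-, and the share of all bins in those fits is not given.

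By gene name, with all tumors and no block, p53-/- had a larger share called higher on chromosome 9 than over all autosomes, while BRCA1-/-;p53+/- lay near its background. Of 1184 gene names of chromosome 9, p53-/- had 182 called higher and 22 lower (15.4% and 1.86%), against 9.1% and 7.59% of all 19773 autosomal names (limma). BRCA1-/-;p53+/- had 27 higher and 45 lower (2.28% and 3.80%), against 2.34% and 2.89%. The other 6 models had at most 4 called, where the background was 3.02% higher and 1.68% lower in MMTV-HRas, 0.642% and 0.0253% in MMTV-Myc, 0.48% and 0.0202% in MMTV-PyMT, 0.0556% and 0.0202% in MMTV-Wnt1, 0% and 0.0354% in MMTV-Her2/neu and 0% and 0.00506% in C3(1)-Tag. With scan date as a block, a fit that leaves out BRCA1-/-;p53+/-, the p53-/- counts were 24 and 10 (2.03% and 0.845%), against 1.66% and 1.21% of all names. Without P53_5809 they were 53 and 15 (4.48% and 1.27%), against 4.06% and 3.45%, so that the share called higher lay near the background in both fits. Neighbouring genes share segments and are not independent.

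Of 72 names in 6 lists of cancer genes, 62 were on the array among the chromosome 9 probes, and 2 of 62 were called lower in BRCA1-/-;p53+/-, close to the background of 2.89% of all names. Tcf12, a basic helix-loop-helix transcription factor, read -0.027, 0.017, -0.84, -0.52 and -1.03 (difference -0.60 ± 0.12, SE, limma adjusted p = 0.00138), but the 2 probes differed widely (-0.16 and -1.04), with normexp background correction the adjusted limma p was 0.951, and with spots well above background in both channels the difference was -0.34 (limma adjusted p = 0.0869). Mcam, an adhesion molecule measured by 1 probe, read -0.083, -0.40, -1.21, -0.55 and 0.23 (difference -0.49 ± 0.14, SE, limma adjusted p = 0.0361). It was not called with normexp background correction (difference -0.079, limma adjusted p = 0.848), with loess (0.0569), with slide as a random block (0.0818) or without the C3(1)-Tag and MMTV-Her2/neu tumors in doubt (0.0572).

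In p53-/- 9 list genes were called higher and 1 lower, where 9.1% and 7.59% of all names were. Without P53_5809 the number called was 1 (background 4.06% higher and 3.45% lower), and without P53_2979 it was 5 (background 5.11% and 5.41%). Over all 45 fits with 1 tumor left out the number ran from 1 to 15. By list, 2 of 7 mitotic genes, 2 of 13 signalling genes, 2 of 12 transcription and chromatin genes and 3 of 12 genes of adhesion, proteolysis and invasion were higher, 1 of these last 12 was lower, and none of 6 DNA damage genes or 13 candidate suppressors of human chromosome 3 was called. The list medians of the difference were 0.074, 0.12, 0.18 and 0.083 for the first 4 and 0.0026 and 0.0098 for the last 2, against 0.0037 over all gene names.

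The largest difference was that of Pvrl1 (now Nectin1), an adhesion molecule that is also a herpesvirus receptor. The 6 p53-/- tumors read 0.46, 0.39, 0.53, 0.96, 0.56 and 0.81, a narrow range inside the wide -1.18 to 1.15 of the others (difference 0.70 ± 0.15, SE, limma adjusted p = 0.00151), and it was the 1 gene of the 10 still called with scan date as a block (limma adjusted p = 0.0283). Kif23, a kinesin of cytokinesis, read 0.54, 0.37, 0.79, 0.41, 0.51 and 0.26, also inside the range of the others (difference 0.56 ± 0.19, SE, limma adjusted p = 0.0379), although its 2 probes differed by 0.098 and 1.02. The difference of Kif23 turned to -0.18 with normexp background correction, and it was not called with loess (limma adjusted p = 0.184), with slide as a random block (0.0937) or without the C3(1)-Tag and MMTV-Her2/neu tumors in doubt (0.0588). Cdc25a, the phosphatase that activates cyclin-dependent kinases, read 0.13, 0.55, 0.91, 0.64, 0.061 and 0.31, with 3 of 6 above all other tumors (difference 0.44 ± 0.11, SE, limma adjusted p = 0.00494), but its 2 probes differed by 0.075 and 0.80 and with normexp background correction the difference was 0.17 (limma adjusted p = 0.157). Tcf12, low in BRCA1-/-;p53+/-, was higher here, at 0.071, 0.40, 0.84, 0.46, 0.22 and 0.44 (difference 0.41 ± 0.11, SE, limma adjusted p = 0.00904), and the comparison group includes those low tumors. Its 2 probes differed by 0.11 and 0.72, and with normexp background correction the difference of the gene was 0.11 (limma adjusted p = 0.310).

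Nck1, an adaptor of receptor tyrosine kinases measured by 1 probe, differed by 0.51 (limma adjusted p = 0.00747). Adamts8, a secreted protease, Pias1, a SUMO ligase, Smad6, an inhibitor of BMP signalling, and Ncam1, the neural cell adhesion molecule, differed by 0.41, 0.35, 0.31 and 0.27, with limma adjusted p from 0.0270 to 0.0431. None of these 4 was called with normexp background correction, loess or slide as a random block, where Adamts8 had limma adjusted p of 0.0773, 0.0544 and 0.0596 and Pias1 of 0.308, 0.0620 and 0.0691. Smad6 and Ncam1 were also not called without the C3(1)-Tag and MMTV-Her2/neu tumors in doubt (limma adjusted p 0.0506 and 0.0505). At Pias1 the tumors read -0.33, 0.73, 1.03, 0.31, -0.048 and 0.18, so that P53_2979 and P53_5809 were again the highest, and its 2 probes differed by -0.038 and 0.73. The 4 probes of Ncam1 differed by -0.00064 to 0.72. Thy1, a glycolipid-anchored surface protein (1 probe), was the only list gene called lower, at -0.47, -0.95, -0.78, -0.25, -0.22 and -0.27 (difference -0.42 ± 0.11, SE, limma adjusted p = 0.00863), and with normexp background correction the difference was -0.098 (limma adjusted p = 0.798). It lies within 0.3 Mb of Pvrl1, which was higher, and the 1 Mb bin that holds both was not called (difference 0.093, limma adjusted p = 0.409). These genes were measured by 1 to 4 probes each, and none of the bins around them was called in the same comparison. The bin differences in p53-/- ran from -0.0030 at Smad6 to 0.15 at Pias1, with 0.13 at Nck1 and 0.10 at Cdc25a, against a median of 0.053 over the bins of the chromosome.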

How the data were processed

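Genomic DNA of 45 tumors and of a pooled reference was hybridised to 2-colour 44K arrays in build mm8. As deposited, the spot and background intensity values came from Agilent Feature Extraction (version 9.5.1.1 in the file headers, 10.7 in the submitters' processing notes), which subtracted background and normalized the dyes. The deposited log10 ratio is that of Cy5 over Cy3. The authors also deposited a table of aberrant intervals with mean log2 ratios per array, used here, from 3 probes and a size of 0.2, for the direction of the dyes and as an alternative. Its p-values and 8 tables per model were not used.

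The log10 ratios were turned in sign, since Cy3 over Cy5 was taken as tumor over reference, converted to log2 and set to a median of 0 over the autosomal probes. Control spots and outlier spots were left out, and spots of 1 probe were averaged. Before segmentation single probes more than 4 SD from their neighbours were pulled in to 2 SD, a step chosen after the data were seen. Recursive binary segmentation used a split statistic of 6 and at least 5 probes. A bin was the median of at least 3 probes in 1 Mb. Bins and gene names were fitted with limma 3.58.1 (R 4.3.3) on all autosomes, each model against the mean of the other 7, with Benjamini-Hochberg adjustment at 0.05. Means and breakpoints were compared by two-sided exact permutation over tumors, adjusted over 8 models, and shares by 100000 sign flips. Python 3.11.15, numpy 2.4.6, pandas 2.3.3, scipy 1.17.1 and numba 0.67.0 were used, and the scripts were tested on simulated data.

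The probes described, the gene lists and the tests were chosen with earlier results of these data known. Named genes are those of the lists, the most extreme probe of the most altered bins, the genes at the ends of focal segments with their most extreme gene, and the genes of the bin with the largest difference in contrasts with called bins. The miRNA genes and the other genes named were chosen after their values were seen. Alternatives covered centring, background, loess, spot filters, dye direction, segmentation, slides, dates and tumors left out. Chromosome 9 below 12 Mb and some genes and places are not reported here. The number of arrays limits the precision, and binomial intervals cover counting error only.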

Additional observations from a re-analysis of the deposited data

Results flagged for a closer look

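In 2 of the 8 models 1 tumor lay far from the rest by its mean log2 ratio of chromosome 9, by a gap test within each model that chance would meet in about 1 of 20 groups. In MMTV-HRas the highest of 5 tumors, Hras_An1_3, had a mean of 0.195, and the other 4 lay between -0.142 and -0.050. All 103 bins of Hras_An1_3 were above 0, and it was called gained with the density peak as centre, with bright spots and in the authors' intervals. In MMTV-Wnt1 the lowest of 5 tumors, Wnt_4635, had a mean of -0.129, and the other 4 lay between -0.027 and -0.0078. It is the tumor whose Wnt1 probe was at 0.074.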

How the results depend on the processing

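Of all values recomputed under an alternative, 2472 kept their direction and side of the threshold, 123 lost the call, 7 gained one, 62 moved and 43 reversed. For the mean of chromosome 9 (model minus the other 7), the dyes as labelled gave 0.0339 in BRCA1-/-;p53+/-, 0.0302 in C3(1)-Tag, 0.0138 in MMTV-HRas, 0.0492 in MMTV-Her2/neu, 0.0261 in MMTV-Myc, -0.0222 in MMTV-PyMT, 0.0129 in MMTV-Wnt1 and -0.111 in p53-/-. The density peak gave 0.0248 in MMTV-HRas. The median of probes gave 0.000656 in C3(1)-Tag, 0.00662 in MMTV-HRas and 0.00603 in MMTV-Wnt1, and the model's own slides gave 0.0203 in C3(1)-Tag. MMTV-Wnt1 gave 0.00923 without Wnt_4635 and 0.0110 without all tumors in doubt. Leaving out 1 tumor gave -0.0681 to 0.0153 in BRCA1-/-;p53+/-, -0.0799 to 0.0291 in C3(1)-Tag, -0.0727 to 0.0114 in MMTV-HRas, -0.0965 to 0.0275 in MMTV-Her2/neu, -0.0382 to -0.0122 in MMTV-Myc, 0.0123 to 0.0327 in MMTV-PyMT, -0.0219 to 0.00923 in MMTV-Wnt1 and 0.0638 to 0.164 in p53-/-. For breakpoints, BRCA1-/-;p53+/- had 3.33 more with outlier spots kept, 3.15 without Wnt_4635, 3.2 without all tumors in doubt and 1.98 to 3.48 without 1 tumor. MMTV-Her2/neu had 2 more on its own slides. MMTV-Wnt1 had -0.525 with normexp, -1 without Wnt_4635, -1 without all tumors in doubt, -2 with no smoothing and -1 to 1.5 without 1 tumor. The lost share differed by -11.2 points with the dyes as labelled, 0.313 without all tumors in doubt and -3.67 to -0.999 without 1 tumor, and the gained share by -2.01 with the dyes as labelled, -5.90 in the authors' intervals and -12.8 to -10.5 without 1 tumor. Called bins in p53-/- numbered 0 with the density peak, without Wnt_4635, with scan date as a block and in 2 Mb bins, 1 with bright spots, 12 by the mean of probes, 13 with normexp and 0 to 10 without 1 tumor. Of all bins, the density peak called 1.37% higher and 2.49% lower, bright spots 2.15% and 4.83%, and normexp 8.59% and 2.98%. Without Wnt_4635 these shares were 2.1% and 4.59%, with scan date 0.195% and 0%, and without P53_1573, the fit with 10, 3.17% and 7.02%. Called bins numbered 4 in BRCA1-/-;p53+/- by the mean of probes and 1 in MMTV-Her2/neu with slide as a block. Shares of all bins are not given for those fits or 2 Mb bins. Called list genes in p53-/- numbered 6 with normexp, 6 with loess, 5 with slide as a random block, 1 with scan date as a block and 1 to 15 without 1 tumor (1 without P53_5809, 5 without P53_2979). Of all names, normexp called 10.3% higher and 2.76% lower, loess 7.62% and 7.26%, the random block 5.53% and 4.32%, and scan date 1.66% and 1.21%. In BRCA1-/-;p53+/- called list genes numbered 0 with normexp, 1 with loess, 1 with bright spots, 1 without the C3(1)-Tag and MMTV-Her2/neu tumors in doubt, 1 with slide as a random block and 1 to 3 without 1 tumor, and in MMTV-HRas 0 to 1. Shares of all names are not given for the fits of these 2 models. Kif23 gave -0.18 with normexp. With the dyes as labelled the differences were 0.49 for Mcam and 0.60 for Tcf12 in BRCA1-/-;p53+/-, and in p53-/- -0.41 for Adamts8, -0.44 for Cdc25a, -0.56 for Kif23, -0.27 for Ncam1, -0.51 for Nck1, -0.35 for Pias1, -0.70 for Pvrl1, -0.31 for Smad6, -0.41 for Tcf12, 0.42 for Thy1, and -0.25 and -0.29 for the 2 bins. The cause of these changes was not tested, beyond the turned sign of the dyes. The own-slide comparison gave no value for BRCA1-/-;p53+/-, MMTV-HRas or p53-/-, whose slides hold no other model. No paired analysis was possible because the replicate numbers only follow the order of the samples, and slide and scan date were used as blocks instead.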
